A study of Mus musculus with 6 samples.

Results

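Ugt8a, Fa2h, Gal3st1 and Acer2, 4 enzymes of myelin galactolipid and ceramide metabolism, were followed in the mouse optic nerve from postnatal day 10 to the adult. They were chosen by gene symbol from the identifiers of the deposited series table. They are 4 of 6656 genes linked to probes by name, each to 1 probe, and all 4 were detected on all 6 arrays. Of the 24606 probes, 8047 were linked to 1 gene symbol, so other probes of these genes may have gone unnamed. The nerves came from LIF-/- mice on the CD1 background, which lack the cytokine leukemia inhibitory factor, and from wild-type CD1 mice, collected at postnatal day 10, day 14 or day 35 (adult) and all labelled male. Each of the 6 groups was 1 array of pooled nerves (10 nerves at day 10, 8 at day 14 and 4 at day 35), untreated after dissection. The study asked how this cytokine bears on the timing of oligodendrocyte development and myelination.

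Galactosylceramide and its sulfated form, sulfatide, are the galactolipids that set the myelin membrane apart from other membranes. Their synthesis starts from ceramide: Fa2h, fatty acid 2-hydroxylase, hydroxylates the fatty acids that are built into it, Ugt8a, the UDP-galactose:ceramide galactosyltransferase, adds galactose, and Gal3st1, the cerebroside sulfotransferase, adds sulfate in the Golgi. Acer2, an alkaline ceramidase of the Golgi, breaks ceramide down to sphingosine. In the central nervous system the first 3 enzymes are made mainly by oligodendrocytes, and mice without Ugt8a or Gal3st1 form myelin with disturbed paranodes.

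The promoter windows of the members are shown because Ugt8a, Acer2 and Gal3st1 took different courses with age. RefSeq windows of GRCm38.p6, from 250 bases before to 50 bases after the annotated start, were found for 3 of the 4 genes, and Fa2h was not matched. Capitals mark CpG dinucleotides.
Ugt8a, chr3:125938603-125938902, minus strand: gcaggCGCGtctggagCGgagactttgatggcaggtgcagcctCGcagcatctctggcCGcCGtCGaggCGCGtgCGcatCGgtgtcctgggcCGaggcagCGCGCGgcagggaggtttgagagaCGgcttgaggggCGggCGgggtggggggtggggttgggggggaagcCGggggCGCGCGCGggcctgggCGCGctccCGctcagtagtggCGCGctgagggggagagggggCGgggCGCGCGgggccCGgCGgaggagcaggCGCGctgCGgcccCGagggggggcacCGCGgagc
Gal3st1, chr11:3983386-3983685, plus strand: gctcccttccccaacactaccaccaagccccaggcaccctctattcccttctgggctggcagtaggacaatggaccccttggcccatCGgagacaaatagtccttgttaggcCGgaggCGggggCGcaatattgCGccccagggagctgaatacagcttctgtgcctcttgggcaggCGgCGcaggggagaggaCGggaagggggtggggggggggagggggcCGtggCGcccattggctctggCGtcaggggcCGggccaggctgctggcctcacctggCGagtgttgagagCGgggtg
Acer2, chr4:86874164-86874463, plus strand: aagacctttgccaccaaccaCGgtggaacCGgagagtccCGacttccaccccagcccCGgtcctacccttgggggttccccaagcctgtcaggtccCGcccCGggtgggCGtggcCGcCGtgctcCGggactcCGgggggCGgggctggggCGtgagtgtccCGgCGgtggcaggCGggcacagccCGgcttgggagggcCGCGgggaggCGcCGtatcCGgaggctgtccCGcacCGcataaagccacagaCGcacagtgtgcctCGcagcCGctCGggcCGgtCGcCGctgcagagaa
The Ugt8a window held 40 CpG dinucleotides and 78.3% G and C, the Gal3st1 window 14 and 67.0%, and the Acer2 window 31 and 73.0%, while the median over all 32851 promoter windows was 7 and 52.7%. Gal3st1 has another window that overlaps the one shown, chr11:3983401-3983700, with 17 CpG dinucleotides and 68.0% G and C. A further annotated start lies 3′ of both, with the window chr11:3989683-3989982, 2 CpG dinucleotides and 56.0% G and C. None of the 5 windows of these genes held AACAAT or ACAAAG, sequences bound by SOX factors, CTGGCAC or CTGGTAC, sequences bound by the oligodendrocyte factor MYRF, or the E-box CACGTG, on either strand. These sequences occurred in 10.7%, 18.7%, 5.01%, 2.24% and 7.15% of all windows. The absence of these letters from a window says nothing about binding elsewhere.

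The arrays are read as the mean intensity of the beads that carry a probe, so a level is comparable between arrays for 1 probe but not between probes. Between 12222 and 13292 probes per array were detected, and the median signal was 51.8 to 61.9. The arrays of days 10 and 14 were on one slide and those of day 35 on another, so a change that ends at day 35 and a difference between slides cannot be told apart. The 18S control read 1576 and 1655 on the day 35 slide and 3061 to 3812 on the other. The Lif probe itself was dim on every array, at 88.2, 56.0 and 60.7 in LIF-/- nerves and 75.4, 76.6 and 57.0 in CD1 nerves at days 10, 14 and 35, so it does not separate the genotypes; the labels do not say whether it lies in the deleted part. All 8 measured astrocyte markers and 21 of the 23 measured genes of myelin and oligodendrocytes were detected on all 6 arrays. Drp2 was the 1 measured gene among 7 markers of Schwann cells, which also make galactolipids. The Y-linked genes Eif2s3y and Kdm5d went undetected on the day 35 LIF-/- array, as did Eif2s3y on the CD1 array of day 10. Summed Y-linked signals were 345 in LIF-/- and 93.2 in CD1 nerves at day 10. At day 14 they were 699 in LIF-/- and 783 in CD1, and at day 35 41.5 in LIF-/- and 173 in CD1. Whether the sexes of the pools were alike within each pair was not tested.

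At day 10 the LIF-/- nerve had less signal for Fa2h, Ugt8a and Gal3st1 than the CD1 nerve, while Acer2 was about equal in both. Fa2h was at 0.558 times the CD1 level, Ugt8a at 0.630 times and Gal3st1 at 0.744 times. At day 14 all 4 genes lay within 0.09 log2 units of the CD1 value. Without normalization between arrays the day 14 values were -0.35 to -0.20, with all probes at a median of -0.21, and Acer2 at day 10 was at 0.14, with all probes at 0.13. With 1 array per genotype and age, these are values with no replicate and no test.

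The normalized log2 signal of Fa2h at day 10 was 10.89 in LIF-/- and 11.73 in CD1 nerves. At day 14 it was 12.11 in LIF-/- and 12.20 in CD1, and at day 35 it was 12.52 in LIF-/- and 12.71 in CD1. The LIF-/- array was the lower one of each pair, with differences of -0.84, -0.09 and -0.19 log2 units. Before normalization, the deposited signal was 2228 in LIF-/- and 3504 in CD1 nerves at day 10, 3885 in LIF-/- and 4963 in CD1 at day 14, and 5468 in LIF-/- and 6549 in CD1 at day 35.

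The normalized log2 signal of Ugt8a at day 10 was 11.07 in LIF-/- and 11.74 in CD1 nerves. At day 14 it was 11.98 in LIF-/- and 11.94 in CD1, and at day 35 it was 12.17 in LIF-/- and 12.26 in CD1. The differences were -0.67, 0.04 and -0.09, so that the genotypes were apart at day 10 and close at days 14 and 35. Before normalization, Ugt8a read 2496 in LIF-/- and 3506 in CD1 nerves at day 10, 3567 in LIF-/- and 4119 in CD1 at day 14, and 4278 in LIF-/- and 4829 in CD1 at day 35.

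The normalized log2 signal of Gal3st1 at day 10 was 10.64 in LIF-/- and 11.06 in CD1 nerves. At day 14 it was 11.36 in LIF-/- and 11.31 in CD1, and at day 35 it was 10.47 in LIF-/- and 10.72 in CD1. The differences were -0.43, 0.05 and -0.26, so that the LIF-/- nerve was lower at the first and last age. In both genotypes the highest of the 3 values was that of day 14. The deposited signals show the same order of ages, with 1882 in LIF-/- and 2257 in CD1 nerves at day 10, 2296 in LIF-/- and 2639 in CD1 at day 14, and 1314 in LIF-/- and 1598 in CD1 at day 35.

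The normalized log2 signal of Acer2 at day 10 was 6.05 in LIF-/- and 6.08 in CD1 nerves. At day 14 it was 7.49 in LIF-/- and 7.45 in CD1, and at day 35 it was 8.25 in LIF-/- and 8.62 in CD1. The genotypes lay together at days 10 and 14 and apart by -0.37 at day 35. The deposited Acer2 signals at day 10, 105 in LIF-/- and 98.6 in CD1 nerves, were not far above the medians over all probes of those arrays, 61.9 for LIF-/- and 61.0 for CD1, which limits how small a difference could be seen there. At day 14 they were 183 in LIF-/- and 214 in CD1 nerves, and at day 35 they were 307 in LIF-/- and 384 in CD1.

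**Figure D1:**
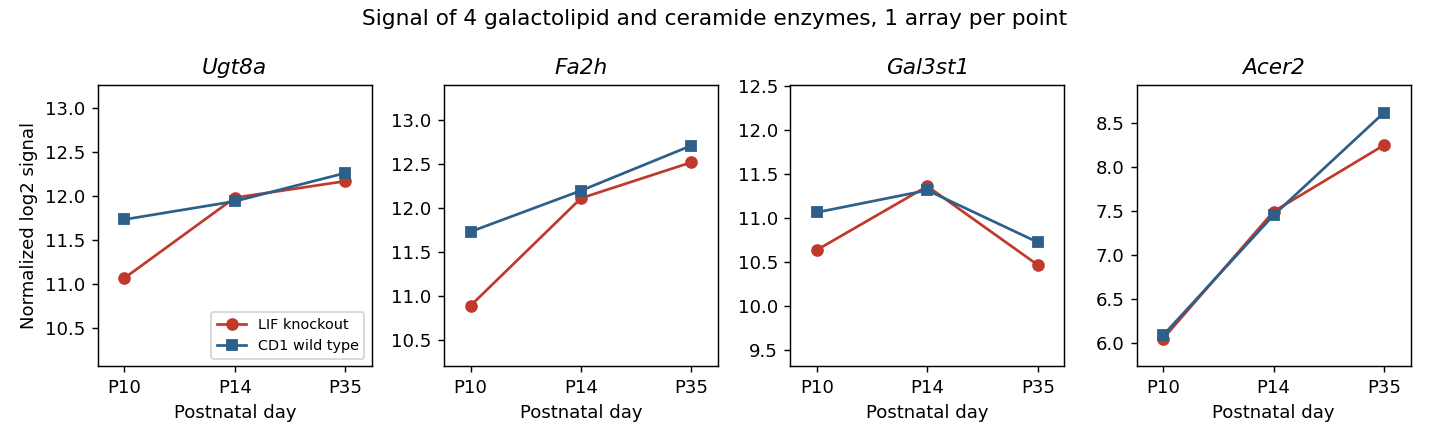
Normalized log2 signal (vertical axis) of the 4 genes at postnatal days 10, 14 and 35 (horizontal axis, ages evenly spaced), in LIF-/- (red circles) and CD1 (blue squares) nerves. Each point is 1 array of pooled nerves, all panels span the same number of log2 units, and the largest gap is that of Fa2h at day 10, 10.89 against 11.73.

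How unusual the day 10 differences were among all probes was read from the 13827 probes tested. At day 10, 9.34% of them were lower in the LIF-/- nerve by more than 0.5 log2 units, which 2 of the 4 members were, Fa2h and Ugt8a. Ranked by this difference, 2.73% of probes lay at or below Fa2h, 5.21% at or below Ugt8a, 12.2% at or below Gal3st1 and 46.7% at or below Acer2. None of the 4 was lower by more than 0.5 units at day 14, where 5.08% of probes were, or at day 35, where 5.89% were. Over all probes the difference had a standard deviation of 0.45, 0.33 and 0.42 at the 3 ages, so the Gal3st1 difference at day 10 and all member differences at days 14 and 35 lay within 1 standard deviation of the median of all probes.

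Most genes of myelin and mature oligodendrocytes also had less signal in the LIF-/- nerve at day 10, again with no test. Of the 23 measured, 20 were below 0 at day 10, with a median of -1.17 log2 units. The summed normalized signal of the 23 was 67725 in LIF-/- and 89166 in CD1 nerves. Most of that sum came from the bright probes of Mbp, Cldn11 and Mag, so it says little about the other genes. Mog, a surface glycoprotein of myelin, stood at -1.62, Cnp, an enzyme of noncompact myelin, at -0.93 and Mag, an adhesion protein of the inner myelin surface, at -0.29. Mbp, whose protein compacts the sheath, stood at 0.00, but it and Mag are among the brightest probes, whose values the normalization sets by rank. Fa2h was 0.33, Ugt8a 0.50, Gal3st1 0.74 and Acer2 1.13 log2 units above the median of this list. At day 14 the list median was -0.11 and at day 35 it was 0.06. In whole nerve, fewer oligodendrocytes and less RNA per oligodendrocyte cannot be told apart.

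Genes of earlier stages of the lineage were set beside them at day 10. The 7 measured genes of precursors and lineage factors had a median of -0.17, with 6 below 0. The precursor gene Pdgfra was above 0, at 0.68, with 10.91 in LIF-/- and 10.23 in CD1 nerves. Summed signals of the 7 were 18038 in LIF-/- and 21970 in CD1 nerves. In every gene list such a sum weighs the brightest probes most, so it does not measure the amount of a cell type. All 8 genes of newly formed oligodendrocytes were above 0, with a median of 0.23 and sums of 24119 in LIF-/- and 21237 in CD1 nerves. Markers of other cells also differed in these pools. All 7 endothelial genes were above 0 at day 10, with summed signals of 4965 in LIF-/- and 3217 in CD1 nerves. The 6 rod genes were also all above 0, with sums of 366 in LIF-/- and 160 in CD1, as were the 3 fat genes, with sums of 2630 in LIF-/- and 294 in CD1. Of the 7 skeletal muscle genes 6 were below 0 at day 10, with sums of 2827 in LIF-/- and 3591 in CD1 nerves, and at day 35 all 7 were above 0, with sums of 7932 in LIF-/- and 284 in CD1. Their part in the differences of the enzymes was not tested.

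**Figure D2:**
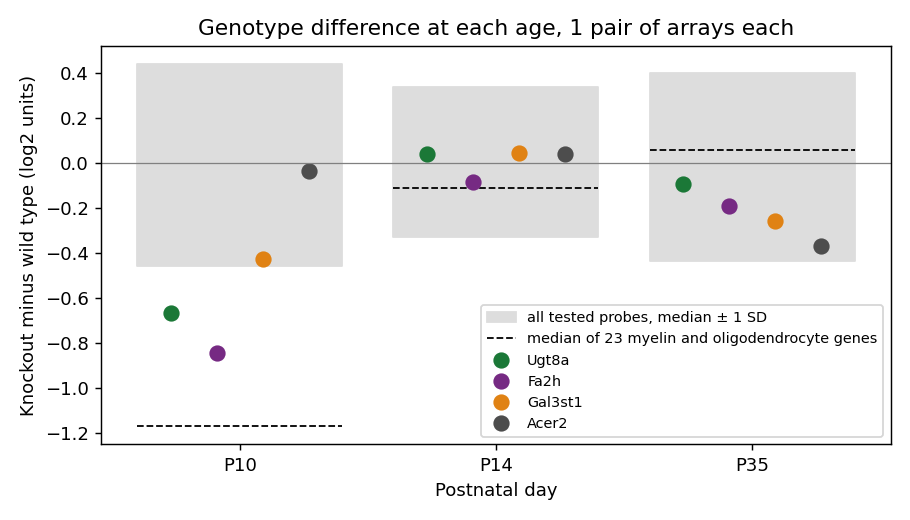
Difference in normalized log2 signal, LIF-/- minus CD1 (vertical axis), at each postnatal day (horizontal axis), for Ugt8a, Fa2h, Gal3st1 and Acer2 (points, 1 pair of arrays each). Grey boxes span the median ± 1 SD over all 13827 tested probes and dashed lines are the medians of 23 myelin and oligodendrocyte genes; Fa2h (-0.84) and Ugt8a (-0.67) lie below the box at day 10.

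Over the 3 ages together, none of the 4 enzymes differed between genotypes past an adjusted p of 0.05. In limma with day as a factor, the difference was -0.37 ± 0.19 log2 units for Fa2h (SE, 3 pairs of arrays, lower in LIF-/- in 3 of 3), with an adjusted p of 0.989. It was -0.24 ± 0.18 for Ugt8a and -0.21 ± 0.15 for Gal3st1, each lower in 2 of 3 pairs and each with a limma adjusted p of 0.989, and -0.12 ± 0.15 for Acer2 (limma adjusted p = 0.991). No probe passed in this comparison (0 of 13827, 0.0%). At an unadjusted p below 0.05 there were 520 probes, with none of the 4 enzymes among them. These p-values measure the scatter of single pooled arrays around a model with the same genotype difference at all ages. Since no group had another pool, that scatter includes any genotype difference that changes with age. It rests on 2 residual degrees of freedom, to which limma added 3.68 prior ones drawn from all probes.

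How far day 10 stood apart was read from a separate term. This term, on 1 residual degree of freedom, set the day 10 difference against a difference shared by the later ages. The term was -0.70 ± 0.27 (SE) for Fa2h and -0.64 ± 0.27 for Ugt8a (limma adjusted p = 0.886 for both, unadjusted p of 0.0581 and 0.0762). It was -0.32 ± 0.30 for Gal3st1 (limma adjusted p = 0.907) and 0.13 ± 0.32 for Acer2 (limma adjusted p = 0.964). Without normalization between arrays the term was -0.35 for Fa2h, -0.30 for Ugt8a, -0.022 for Gal3st1 and 0.42 for Acer2, and with arrays scaled to the same median it was -0.46, -0.41, -0.13 and 0.31 for the same genes. The limma fit called no probe for this term (0.0%), while 734 had an unadjusted p below 0.05, so that the larger gap of Fa2h and Ugt8a at day 10 was not shown to differ from that at the later ages.

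At day 35 against day 10, across the slides, Acer2 and Fa2h were higher and Ugt8a was higher without passing the threshold. Gal3st1 was not higher, and age and slide cannot be told apart here. Over both genotypes, day 35 minus day 10 was 2.37 ± 0.18 log2 units for Acer2 (SE, limma adjusted p = 0.00877), a 5.16-fold higher signal, and 1.31 ± 0.23 for Fa2h (limma adjusted p = 0.0211), 2.47-fold. It was 0.82 ± 0.22 for Ugt8a (limma adjusted p = 0.0521) and -0.26 ± 0.18 for Gal3st1 (limma adjusted p = 0.349). For Gal3st1 it was -0.51 both without normalization between arrays (limma adjusted p = 0.113) and in the authors' deposited table (limma adjusted p = 0.0658). For Acer2, dim at day 10, it was 1.91 with a larger background offset of 50 and 1.75 in the deposited table. Within the genotypes it was 2.20 in LIF-/- and 2.53 in CD1 nerves for Acer2, 1.63 in LIF-/- and 0.98 in CD1 for Fa2h, and -0.17 in LIF-/- and -0.34 in CD1 for Gal3st1. Of all probes 20.8% passed in this comparison, 10.6% higher and 10.2% lower, against 2 of the 4 enzymes, both higher. Without a filter on detection Fa2h missed the threshold (limma adjusted p = 0.0536), and Ugt8a passed it under 4 of the 8 other settings, as given in the closing part.

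Between days 10 and 14, on a single slide, all 4 were higher at day 14 in both genotypes, and the limma fit called no probe in this step (0 of 13827, 0.0%). All 4 enzymes were higher at an unadjusted p below 0.05, as were 6.65% of probes, and 1719 probes in all were below it. The log2 differences were 1.41 ± 0.18 (SE) for Acer2 (limma adjusted p = 0.237), 0.84 ± 0.23 for Fa2h (0.316), 0.56 ± 0.22 for Ugt8a (0.394) and 0.49 ± 0.18 for Gal3st1 (0.382). They were smaller with no normalization between arrays, at 1.25, 0.66, 0.38 and 0.26 for the same genes. In the authors' deposited table they were 0.96, 0.66, 0.38 and 0.26. The unadjusted p-values above hold for the normalized signals. Within each genotype the step was 1.22 in LIF-/- and 0.47 in CD1 nerves for Fa2h, 0.91 in LIF-/- and 0.21 in CD1 for Ugt8a, and 0.72 in LIF-/- and 0.25 in CD1 for Gal3st1. The step of Acer2 was about equal, 1.45 in LIF-/- and 1.37 in CD1 nerves. All 4 steps in the LIF-/- nerve exceeded 0.5 log2 units, as did 12.1% of probes, and 1 of 4 in CD1 nerves, that of Acer2, as did 8.32% of probes. When the arrays were not normalized to each other, the genotype differences at days 10 and 14 were -0.66 and -0.35 for Fa2h. They were then -0.49 and -0.21 for Ugt8a, -0.27 and -0.20 for Gal3st1 and 0.14 and -0.20 for Acer2. The medians of all probes were 0.13 and -0.21. The Gal3st1 steps of LIF-/- and CD1 nerves were thus closer to each other than after normalization, and those of Acer2 further apart. The difference between these steps was not tested as such.

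Between days 14 and 35, across the slides, Acer2 was higher by 0.96 ± 0.18 log2 units (SE, limma adjusted p = 0.0296), a contrast added after the values were seen. Gal3st1 stood at -0.74 ± 0.18, just short of the threshold (limma adjusted p = 0.0504), with steps of -0.90 in LIF-/- and -0.59 in CD1 nerves. Fa2h and Ugt8a stood at 0.46 ± 0.23 and 0.25 ± 0.22 (limma adjusted p of 0.207 and 0.438). Of all probes 14.9% passed, 7.74% higher and 7.12% lower. With day 10 left out Acer2 no longer passed (limma adjusted p = 0.0602), and no probe did. Fa2h and Ugt8a were thus highest at day 35 in both genotypes, and Gal3st1 at day 14.

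**Figure D3:**
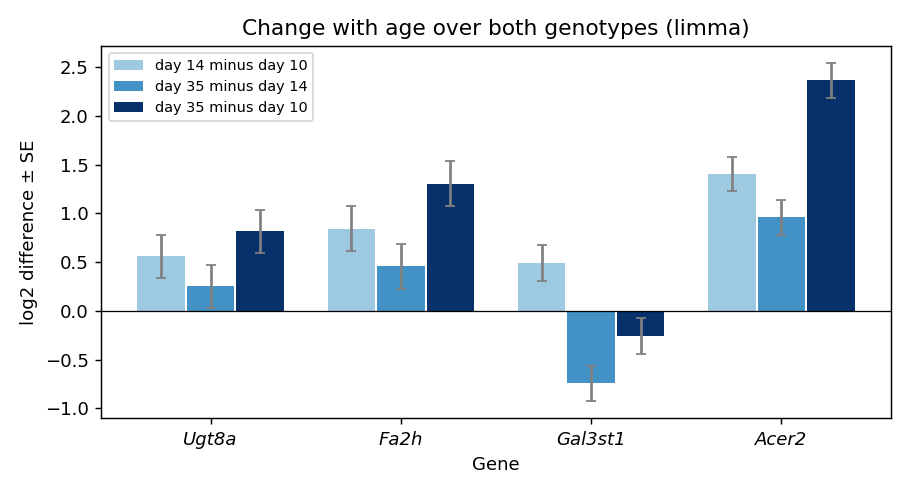
Change in log2 signal between ages (vertical axis) for each gene (horizontal axis), over both genotypes, with SE bars from the limma fit to 6 arrays. Bars that end at day 35 also compare different slides. Acer2 shows the largest changes, 2.37 from day 10 to day 35, and Gal3st1 is the gene with a negative bar from day 14 to day 35, at -0.74.

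The profiles over the 6 arrays were compared by Pearson correlation, as a description over points that share pools and slides. Ugt8a and Fa2h had r = 0.99 with each other, so that each was among the 5 genes most like the other of 5915 compared. Acer2 had r = 0.87 with Ugt8a and 0.91 with Fa2h, and Gal3st1 had r of 0.09, 0.02 and -0.18 with Ugt8a, Fa2h and Acer2. The genes most like Ugt8a, by the brightest probe, were Cryab, a small heat shock protein, Rhou, Fa2h, Fign and Trf, the iron carrier transferrin, with r of 0.99 or above. Cryab, for example, had a log2 signal of 10.76 in LIF-/- and 12.24 in CD1 nerves at day 10, 12.79 in LIF-/- and 12.64 in CD1 at day 14, and 13.19 in LIF-/- and 13.21 in CD1 at day 35.

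The genes most like Fa2h were Piga, an enzyme of GPI anchor synthesis, Arfgef2, Dnajc6, the clathrin uncoating cofactor auxilin, Ugt8a and Nkx6-2, a homeobox factor of oligodendrocytes, with r of 0.99. Those most like Gal3st1 were Elovl6, a fatty acid elongase, Ppp3cc, a catalytic subunit of calcineurin, Mag, Prkcz, an atypical protein kinase C, and Ddr1, a collagen receptor, also with r of 0.99 or above. As an example, Prkcz was at 9.09 in LIF-/- and 10.07 in CD1 nerves at day 10, 10.50 in LIF-/- and 10.54 in CD1 at day 14, and 8.97 in LIF-/- and 9.27 in CD1 at day 35. Mag was the brightest probe on both day 14 arrays, where its value is set by rank. Those most like Acer2 were Ifi47, Grk5, Gosr2, Cln8 and Phyhd1, with r of 0.99, a measure of shape and not of size. Grk5 lay between 5.34 and 5.54 on all 6 arrays, while Phyhd1 was at 6.50 in LIF-/- and 6.45 in CD1 nerves at day 10 and at 7.57 in LIF-/- and 7.74 in CD1 at day 35.

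The wider pathway was read from 78 other genes of sphingolipid synthesis, transport and breakdown, of which 50 were measured. At day 10, 39 of the 50 were below 0 in the LIF-/- nerve, where 7040 of all 13827 probes were. Their median was -0.15, against -0.01 over all probes, and 11 of 50 were lower by more than 0.5 log2 units, where 9.34% of all probes were. At day 14 the list was evenly split, 25 on each side with a median of 0.00, and at day 35 33 of 50 were below 0 with a median of -0.06. The day 10 median turned to 0.037 without normalization between arrays, where all probes had 0.13, and was -0.013 with arrays scaled to the same median, where all probes had 0.083. At day 14 it was -0.23 without normalization, where all probes had -0.21.

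Genes that supply the fatty acids of ceramide were below 0 at day 10 in 8 of 8 cases by the brightest probe, with a median of -0.42. For Hacd1, one of the 8, the brightest probe was at -0.10 and the other at 0.31. Elovl1, which elongates the very long saturated chains, was at 8.66 in LIF-/- and 9.97 in CD1 nerves, a difference of -1.32 (-1.34 and -0.92 on its other probes), and Acsbg1, an acyl-CoA synthetase, at -0.96 on dim signals of 79.0 in LIF-/- and 118.5 in CD1 nerves. The Elovl1 probes disagreed at day 14, with -0.05 on the brightest and -1.06 and -1.02 on the others. Tecr, the last reductase of chain elongation, stood at -0.80 (-0.43 on another probe). Of 8 genes for the sphingoid base and ceramide 6 were below 0, with a median of -0.19. Cers2, the ceramide synthase for very long chains, stood at -0.84, at 9.67 in LIF-/- and 10.51 in CD1 nerves, and Sptlc1, a subunit of the serine palmitoyltransferase that starts the pathway, at -0.82. Sptlc2, its catalytic partner, was at 0.02, and Degs1, the desaturase that forms ceramide, at -0.22. Tecr and Sptlc1 were named after their values were seen, and the grouping by role was also made then.

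Genes for donors and transfer had a median of -0.26 (5 of 6 below 0). Slc35a2, which carries UDP-galactose into the Golgi, stood at -0.84. Papss1, which makes the sulfate donor that Gal3st1 uses, stood at -0.34, and Gltp, a glycolipid transfer protein, at -0.18. Among 11 genes of breakdown the median was -0.16, with 8 below 0. Asah2, the neutral ceramidase, stood at -1.02, also on dim signals of 94.0 in LIF-/- and 148.3 in CD1 nerves, and Asah1, the acid ceramidase, at -0.16, while Arsa, which removes the sulfate of sulfatide, was at 0.07. Galc, which removes galactose from galactosylceramide, was not well above background on either day 10 array. Genes of sphingomyelin, glucosylceramide and gangliosides had a median of -0.06, including -0.01 for Ugcg, the glucosylceramide synthase, and -0.23 for Smpd1, the acid sphingomyelinase. Smpd2, a neutral sphingomyelinase, stood at 0.72. Smpd3, another neutral one that was named after its value was seen, stood at -0.53. Its signals were dim, 70.4 in LIF-/- and 85.8 in CD1 nerves. Among genes of sphingosine phosphate, S1pr5, its receptor on oligodendrocytes, stood at -1.02 and S1pr2 at 0.26, with a median of -0.03 for the 9 genes. Sumf1, which activates sulfatases, and Plpp3, a lipid phosphatase, completed the highest values at 0.16 and 0.11 (-0.17 on the other Plpp3 probe).

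**Figure D4:**
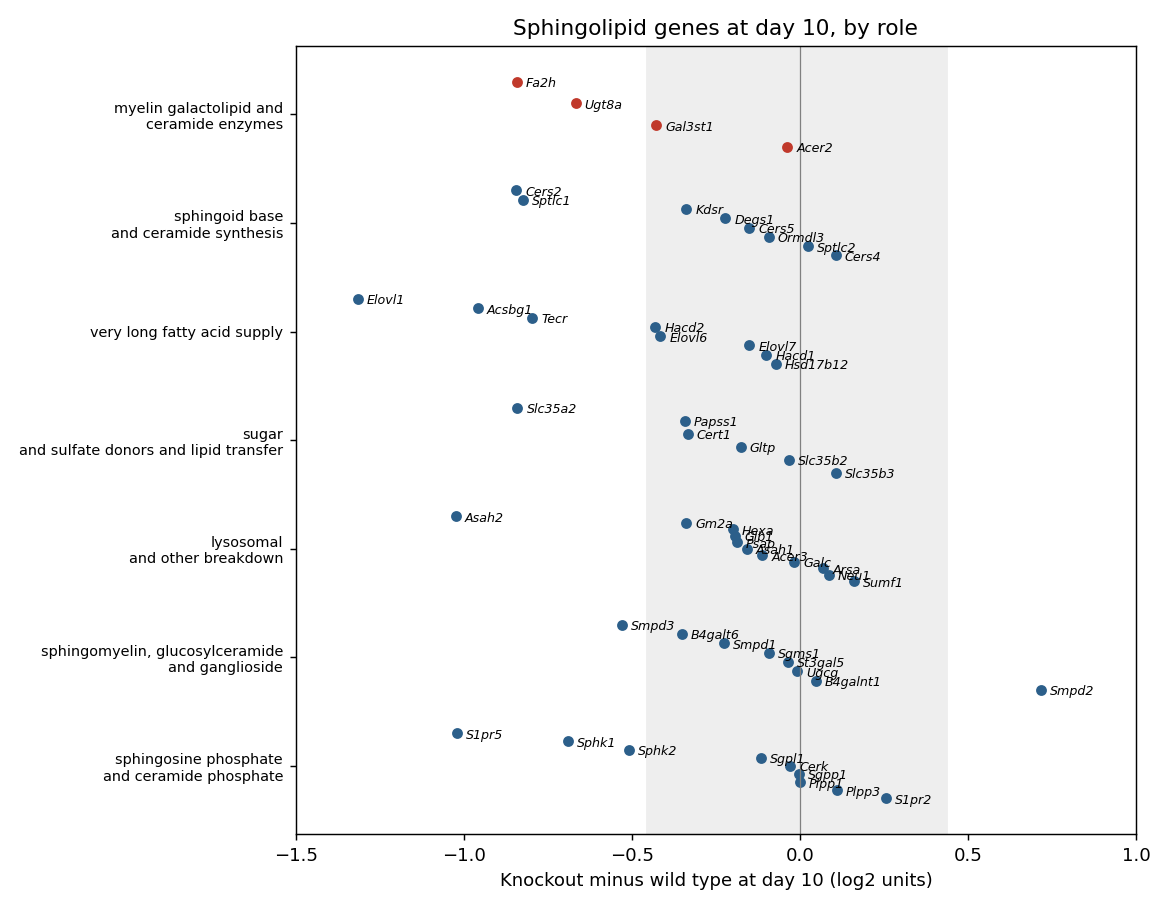
Difference at day 10, LIF-/- minus CD1, in log2 units (horizontal axis), for the 4 enzymes (red) and 50 other sphingolipid genes (blue), grouped by role (rows) with each gene's brightest probe as 1 point. The grey band is the median ± 1 SD over all 13827 tested probes; Elovl1 lies lowest at -1.32 and Smpd2 highest at 0.72.

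At the later ages other genes of this pathway stood out in value. At day 14 Cers2 was at -0.65 (-0.18 on its other probe), Kdsr, the reductase after the first step, at -0.41, Sptlc2 at -0.32 and Hsd17b12 at -0.30. The highest then were Sgpl1, the sphingosine phosphate lyase, at 0.60, Plpp1 at 0.44 (0.04 and -0.02 on its other probes), St3gal5, the ganglioside GM3 synthase, at 0.42 and Cers4 at 0.35. At day 35 Sphk2, a sphingosine kinase, stood at -0.55, Sgpl1 at -0.52, Sgpp1 at -0.30 and Slc35a2 at -0.30. On the other side were Neu1, a lysosomal sialidase, at 0.84, Sgms1, a sphingomyelin synthase, at 0.48, Smpd1 at 0.46 and Glb1, a lysosomal galactosidase, at 0.37. Over the ages no gene of the list passed between genotypes. Markers of other cells differed in the same pools. Of the 10 microglia and macrophage genes, 9 were above 0 at day 14, with summed signals of 4488 in LIF-/- and 2328 in CD1 nerves, and 8 were below 0 at day 35, with sums of 5225 in LIF-/- and 6475 in CD1. At day 14 all 6 rod genes were above 0 (median 1.90), 6 of 7 endothelial genes were below 0 (median -0.42), and all 7 muscle genes and all 3 fat genes were below 0 (medians -1.47 and -0.95). Their part in the pathway values was not tested.

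With age, 9 of the 50 genes rose from day 10 to day 35 and 2 fell (limma adjusted p below 0.05), beside 10.6% and 10.2% of all probes, again across the slides. Among ceramide synthesis genes, Cers2 rose by 1.51 ± 0.29 log2 units (SE, limma adjusted p = 0.0239, with 0.10 on its other probe), Kdsr by 1.02 ± 0.16, Sptlc2 by 0.86 ± 0.17 and Degs1 by 0.75 ± 0.16. Asah2 rose by 1.95 ± 0.29, Smpd1 by 1.33 ± 0.21, Acsbg1 by 1.22 ± 0.26 and Asah1 by 0.68 ± 0.16 (2.16 on its other probe). Galc, detected on both day 35 arrays, was at least 1.65-fold higher there than at day 10 (limma adjusted p = 0.0302). The 2 that fell were Slc35b2, the Golgi transporter of the sulfate donor, at -1.45 ± 0.17 (-0.25 on its other probe), and St3gal5 at -1.25 ± 0.18. Limma adjusted p for these 11 genes ranged from 0.0106 to 0.0356. None passed between days 10 and 14.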

How the data were processed

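RNA of pooled optic nerves was hybridised to Illumina MouseRef-8 BeadChips, 1 array for each of 6 groups, taken from the labels. The deposited files hold 24611 probes, including 5 control rows left out, with the mean bead intensity; per the file headers the authors used BeadStudio 1.5.0.34 and no normalization. A deposited detection score beside it, a fraction from 0 to 1, was read as 1 minus the detection p. In the deposited series table each intensity is scaled by a factor of its array, 15646 of 24613 probes are blank, and the identifiers are those that a platform annotation pairs with genes. Table probes were linked to file rows by their values within 0.05 signal units. Of these, 8934 were linked and 8047 had 1 gene symbol. Of 3108 linked probes whose design identifier holds a number that is a gene identifier on the platform, 99.4% named the linked gene, among them 2 of 2 members that carry one.

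Intensities were background-corrected (limma 3.58.1 in R 4.3.3, normexp from detection p, offset 16), quantile normalized and taken to log2. The 13827 probes with detection p below 0.05 on at least 2 of 6 arrays were tested with lmFit and eBayes, two-sided, with day and genotype as terms, Benjamini-Hochberg over all probes. Scripts were tested on simulated data. A gene counts as measured if a tested probe was linked to it, and it is represented by its brightest such probe. Named genes are the members, the 5 genes most correlated with each, the 4 highest and 4 lowest of the wider list at each age, 10 fixed pathway genes and 5 fixed myelin genes, of which 1 is not reported here. The members and lists were chosen with earlier results of these data known. The number of arrays limits the precision. Alternatives were the offset, 3 other treatments of background or scale, the deposited table, the detection filter, the day term and leaving out each age.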

Additional observations from a re-analysis of the deposited data

Results flagged for a closer look

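Sgpl1, the sphingosine phosphate lyase, is listed because its genotype difference took opposite signs at 2 ages, each beyond the standard deviation of all probes at that age. It was 0.60 log2 units at day 14 and -0.52 at day 35, a gap of 1.12 between the ages. The difference between the ages was not tested, since each rests on 1 pair of arrays. Its deposited signals were dim, 103 to 138 over the 6 arrays. Most microglia and macrophage genes also had opposite signs at these ages, with 9 of 10 above 0 at day 14 (median 0.91) and 8 of 10 below 0 at day 35 (median -0.46). The 6 rod genes were likewise all above 0 at day 14 (median 1.90) and all below 0 at day 35 (median -0.24). Endothelial genes went the other way, with medians of -0.42 at day 14 and 0.27 at day 35. So did muscle genes, with medians of -1.47 and 3.95. The part of any of these markers in the Sgpl1 values was not tested.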

How the results depend on the processing

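Among the recomputed values of the 4 enzymes, 235 kept their direction and their side of the threshold or moved by less than the residual spread. Day 35 minus day 10 of Ugt8a passed with an offset of 50 (0.81), with arrays scaled to the same median (0.79), without background correction (0.81) and with detection on all 6 arrays (0.82), at limma adjusted p from 0.0399 to 0.0492, and that of Fa2h, 1.31, did not pass without a detection filter. Acer2 from day 10 to day 35 passed under every setting run, at 1.75 to 2.37. The added contrast of day 35 minus day 14 for Gal3st1 passed with an offset of 50 (-0.73), without background correction (-0.73), in the authors' deposited table (-0.77) and with detection on all 6 arrays (-0.74), and that of Acer2 did not without normalization (0.89) or without day 10 (0.96). Without normalization between arrays the median of all probes shifted to 0.13 at day 10 and -0.21 at day 14. The genotype differences at day 14 were then -0.21 for Ugt8a, -0.35 for Fa2h, -0.20 for Gal3st1 and -0.20 for Acer2, that of Acer2 at day 10 was 0.14, and the wider list had medians of 0.037 and -0.23. At day 10 Fa2h ranged from -0.84 to -0.66 over settings, Ugt8a from -0.67 to -0.49 and Gal3st1 from -0.43 to -0.27. With 1 age left out, the genotype difference was -0.52 to -0.14 for Fa2h, -0.38 to -0.026 for Ugt8a, -0.34 to -0.11 for Gal3st1 and -0.20 to 0.0019 for Acer2, the ends nearest 0 being without day 10, except for Acer2, without day 35. Probes called between genotypes were then 0 to 1, and 7 for day 14 minus day 10. Calls for day 35 minus day 10 were 1906 without a filter, against 2875, and for day 35 minus day 14 were 1064 without normalization, 1213 in the deposited table, 1079 without a filter and 0 without day 10, against 2055. The day 10 term called 3 probes without normalization. The cause was not tested. The day term pairs the genotypes by age, and no replicate block could be added because the labels carry no replicate numbers. Signal over background limits, among others, Acer2, Galc, Acsbg1, Asah2 and Sptlc2 at day 10 and Sgpl1 at all ages.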
